A study of Rattus norvegicus with 8 samples.

Results

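The solute carriers (Slc genes) were followed through RNA of C6 cells, an established rat glioma line. They were taken as every probe set whose single gene symbol begins with Slc and a digit, which gave 181 of the 8799 probe sets of the arrays, for 120 of the 4737 genes with a symbol of their own. Of these genes, 77 had 1 probe set, 32 had 2, 6 had 3, 3 had 4 and 2 had 5. The 8 oligonucleotide arrays fell into 4 groups of 2 by their titles: C6slow, C6fast, C6SPGFPslow and C6SPGFPfast. All 8 are labelled as the C6 line, with migration as the subject. The labels do not say how slow and fast cells were obtained, what C6SPGFP stands for, whether either set was a single clone, or whether the 2 replicates of a group were separate cultures. A p-value here thus stands on the spread between these arrays alone, which may be technical.

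Solute carriers are membrane proteins that move small molecules across the plasma membrane or the membranes of organelles, either down a gradient or coupled to the flow of sodium, protons, chloride or an exchanged substrate. In glia they are known for clearing glutamate from around synapses, for taking up glucose and handing on lactate, and for setting cell volume through sodium, potassium and chloride. In glioma cells the sodium-potassium-chloride carrier Slc12a2 is known for its part in the volume changes of moving cells. C6 cells are known to take up glutamate mainly through Slc1a1.

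The bases upstream of the start of 5 genes are shown because at least 1 difference of each, below, was called in every run that left out 1 array and tested it. Slc20a2 and Slc1a1 met this too and are not among the windows. Slc25a23 was not tested in the run without C6SPGFP fast array 1. The windows are RefSeq sequence of build GRCr8, the 250 bases before the gene's first base on the gene's own strand, and capitals mark matches to any of 5 short motifs on either strand. The GC box was searched as GGGCGG and the E-box as CACGTG. The cAMP response element (CRE) was searched as TGACGTCA. The AP-1 motif was searched as TGANTCA, where N is any base. The TATA box was searched as TATAAA. Slc2a5, which encodes the fructose carrier, starts after chr5:165865929-165866178 on the plus strand. Slc2a1, for the main glucose carrier of most cells, starts after chr5:138002272-138002521, Slc7a1, for a carrier of arginine and lysine, after chr12:11664238-11664487, and Slc27a1, for a protein of fatty acid uptake, after chr16:18312717-18312966, each on the plus strand. Slc25a23, for a mitochondrial carrier of ATP-magnesium, has its window at chr9:1985366-1985615 on the minus strand.
Slc2a5: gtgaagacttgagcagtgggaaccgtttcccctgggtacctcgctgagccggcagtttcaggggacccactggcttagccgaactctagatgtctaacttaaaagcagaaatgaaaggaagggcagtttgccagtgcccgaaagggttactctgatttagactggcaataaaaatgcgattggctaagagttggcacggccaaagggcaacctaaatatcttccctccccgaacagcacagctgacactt
Slc2a1: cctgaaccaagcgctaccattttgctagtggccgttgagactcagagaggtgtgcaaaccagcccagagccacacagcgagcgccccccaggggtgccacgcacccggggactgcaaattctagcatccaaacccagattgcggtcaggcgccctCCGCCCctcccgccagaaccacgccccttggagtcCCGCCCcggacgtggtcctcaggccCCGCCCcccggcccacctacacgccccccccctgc
Slc7a1: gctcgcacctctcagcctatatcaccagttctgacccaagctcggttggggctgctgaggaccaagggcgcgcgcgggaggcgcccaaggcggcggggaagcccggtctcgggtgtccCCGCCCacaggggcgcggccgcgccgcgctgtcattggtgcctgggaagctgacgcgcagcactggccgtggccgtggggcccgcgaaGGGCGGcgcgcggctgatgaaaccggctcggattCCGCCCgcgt
Slc27a1: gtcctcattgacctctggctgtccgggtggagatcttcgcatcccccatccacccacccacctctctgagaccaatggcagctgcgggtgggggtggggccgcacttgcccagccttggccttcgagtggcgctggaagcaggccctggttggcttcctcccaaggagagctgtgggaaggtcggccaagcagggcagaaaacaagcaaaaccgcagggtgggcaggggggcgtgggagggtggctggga
Slc25a23: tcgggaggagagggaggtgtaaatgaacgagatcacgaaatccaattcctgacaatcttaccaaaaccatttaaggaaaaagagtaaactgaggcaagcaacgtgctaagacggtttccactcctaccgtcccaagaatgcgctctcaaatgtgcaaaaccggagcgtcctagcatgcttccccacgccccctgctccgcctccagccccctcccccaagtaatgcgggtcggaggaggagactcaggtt
The windows of Slc2a1 and Slc7a1 each held 3 GC boxes, and those of Slc2a5, Slc27a1 and Slc25a23 held none of the 5 motifs. The share of GC was 50.8% for Slc2a5, 68.4% for Slc2a1, 73.2% for Slc7a1, 65.6% for Slc27a1 and 53.2% for Slc25a23, against a median of 51.2% over all 33469 windows. Of the 120 Slc genes, 101 had a window. A GC box stood in 48.5% of these and in 30.5% of all windows, an E-box in 10.9% and 5.59%, an AP-1 match in 10.9% and 6.34%, a TATA box in 8.91% and 12.9%, and a CRE in 0.99% and 1.59%. These matches describe letters and do not show that a factor binds.

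The deposited signal of 1 array, C6SPGFP fast replicate 1, had a 2% trimmed mean of 500.5, against 100.1 to 105.8 on the other 7, so signals were quantile normalised to 1 common distribution before any comparison. All signals below are normalised, and all changes are log2 differences of the signal plus a pseudocount of 8, with 2 arrays a group. Across probe sets, the C6 fast arrays correlated least with the other groups (r from 0.899 to 0.939), while the 2 arrays of a group correlated at 0.969 to 0.978. Vim, the glial and mesenchymal filament gene, had signals of 2594 to 3831 on all arrays. The summed signal of 6 probe sets of C6 glioma markers (Vim, S100b, Nes, Cnp) was 4561 to 4860 in C6 slow, 2953 to 3168 in C6 fast, 6629 to 6734 in C6SPGFP slow and 6392 to 6486 in C6SPGFP fast cells. It was lowest where the arrays stood apart, and its part in the results on Slc genes was not tested. S100b, a calcium-binding protein of glia, carried part of this: its brighter probe set had 56.8 and 75 on the C6 fast arrays and 395 to 1275 on the other 6. So did the brighter probe set of Nes, with 190 and 280 on the C6 fast arrays and 717 to 1068 on the other 6. Cnp had 97 and 81 on the C6 fast arrays and 386 to 1292 on the other 6. Signal was low on all 8 arrays for 9 of 10 astroglial, 11 of 12 microglial and haematopoietic, 4 of 5 endothelial and 7 of 9 neuronal marker probe sets. Of the astroglial probe sets, 4 were of Slc1a2 and 4 of Slc1a3, themselves Slc genes, and the rest were of Aldh1l1 and Aqp4. The astroglial count is thus no separate check on these carriers. Signal was low for 3 of 6 oligodendroglial probe sets, where 2 probe sets of Mag, a myelin glycoprotein, ranged over 61.9 to 93.2 and 57.1 to 114. Of 10 fibroblast probe sets 6 were low, and the other 4, all of the collagen gene Col1a1, ranged from 62.2 to 288. The summed fibroblast signal was 536 to 652 in C6 slow, 383 to 427 in C6 fast, 528 to 539 in C6SPGFP slow and 642 to 646 in C6SPGFP fast cells. Col1a1 was called lower in fast than in slow C6 cells on 1 probe set (-0.75) and higher in C6SPGFP than in C6 fast cells on 2 (1.17 and 0.68), and its part in the results on Slc genes was not tested.

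Low signal came first, since it decides which carriers can be compared at all. A probe set was taken as low when it lay below 38.3, the 50th percentile of all values, on each of the 8 arrays. This held for 77 of the 181 Slc probe sets (42.5%), close to the 41.1% of all probe sets, and for every probe set of 44 genes. Below 7.56, the 25th percentile, on all 8 arrays lay 24 Slc probe sets (13.3%, against 13.8% of all) and every probe set of 12 genes. No detection calls were used, so low means a low rank and not that a transcript was absent. Signals of different probe sets depend on their probes and are not compared with each other as amounts.

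Among glutamate carriers, every probe set was low for Slc1a3 and Slc1a6, carriers of astroglia and of Purkinje cells, and for Slc17a7, which fills synaptic vesicles. Among sugar carriers this held for Slc2a2, the carrier of liver and islet, for the kidney carrier Slc5a2 and for Slc37a1. Among amino acid carriers it held for Slc6a7, Slc6a15, Slc6a17, Slc6a18, Slc7a2 and Slc7a3, and among cation-chloride carriers for the kidney carriers Slc12a1 and Slc12a3 and the neuronal Slc12a5. Carriers of transmitters with low signal were Slc32a1 and Slc6a13 for GABA and Slc18a1 and Slc18a2 for vesicular monoamines. The ion carriers Slc4a4, Slc9a2, Slc9a3, Slc9a4 and Slc24a2 and the iron exporter Slc40a1 were low as well. So were the monocarboxylate family members Slc16a6, Slc16a7, Slc16a8 and Slc16a12, the bile acid carrier Slc10a1, and the peptide carriers Slc15a1 and Slc15a2. The phosphate carrier Slc17a1, the sulphate carrier Slc13a1 and the dicarboxylate carrier Slc13a3 were low too. The list closes with Slc22a3, Slc22a6 and Slc22a25 for organic ions, Slc25a23, Slc28a2, Slc35f6, Slc44a4, Slc5a5 and Slc52a3. The 12 genes below the 25th percentile throughout were Slc12a5, Slc13a1, Slc13a3, Slc17a1, Slc17a7, Slc18a1, Slc1a6, Slc22a3, Slc2a2, Slc4a4, Slc5a2 and Slc9a2. Just inside the definition lay Slc28a2, a nucleoside carrier, with 5.92 to 37.5, and just outside it the calcium exchanger Slc8a3, with 22.2 to 38.7.

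**Figure D1:**
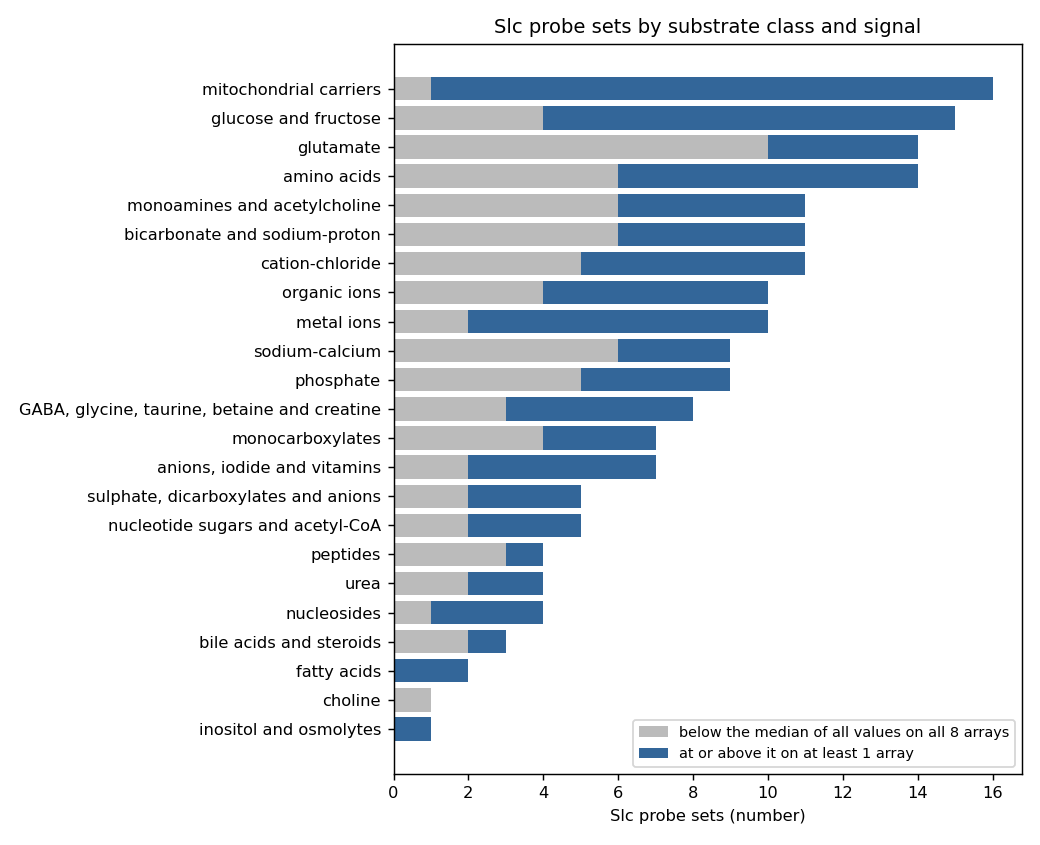
Number of Slc probe sets (x axis) in each substrate class (y axis), split into those below the 50th percentile of all normalised values on all 8 arrays (grey) and those at or above it on at least 1 array (blue). In the glutamate class 10 of 14 probe sets were low, against 4 of 15 in the glucose and fructose class.

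A mean normalised signal of at least 8 was required for testing, which 139 of the 181 Slc probe sets reached, for 96 genes. Slc genes differed between the 2 sets of cells, and in C6 a few differed between fast and slow cells. In fast against slow C6 cells 4 Slc probe sets were called higher (background 2.69% of all 6684 tested) and 1 lower (background 3.96%), at an adjusted p under 0.05 over all probe sets tested. In C6SPGFP cells none of the 139 was called (background 1.06% higher and 0.329% lower), 9 had an unadjusted p under 0.05 in the limma fit, and each alternative run of limma gave 0 calls too. The difference between these changes, C6SPGFP minus C6, was called for 0 Slc probe sets in the positive (background 2.71%) and for 2 in the negative direction (background 1.11%). C6SPGFP slow cells had 6 Slc probe sets higher (background 3.29%) and 7 lower (background 3.05%) than C6 slow cells. C6SPGFP fast cells had 7 higher (background 8.29%) and 16 lower (background 7.3%) than C6 fast cells. Between the sets, 5 Slc probe sets of 3 genes were higher in both slow and fast cells (background 2%), 5 of 3 genes were lower in both (background 1.45%), and none was called in opposite directions. Set against 139 tested probe sets, these counts differ from the backgrounds by a few probe sets and are no result about Slc genes as a group.

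The median change over the 139 Slc probe sets lay near that of all tested probe sets in each comparison. It was 0.02 against 0.01 for fast minus slow in C6, -0.04 against -0.02 in C6SPGFP and -0.09 against -0.04 for their difference. Between the sets it was 0.06 against 0.01 in slow cells and -0.08 against -0.03 in fast cells. In all, 27 of the 139 Slc probe sets, of 19 genes, were called in at least 1 comparison, with 43 calls. Of all 6684 probe sets tested, 1281 were called in at least 1, a like share, so this count is no result about Slc genes either. The comparisons of fast cells between the sets share the C6 fast arrays with the change in C6, so the same pair of arrays enters both. Under the scaling as deposited, where 1 array is several times brighter, 1 of the 43 calls remained, 33 were lost and 9 turned in sign. Without 1 array the remaining 7 were normalised again, and most of the 43 calls ended in at least 1 of these 8 runs. In the run without C6SPGFP fast array 1, Slc25a23 and Slc22a25 fell under the mean needed and were not tested. Below, the arrays without which a call ended are named with the change and adjusted p then found.

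**Figure D2:**
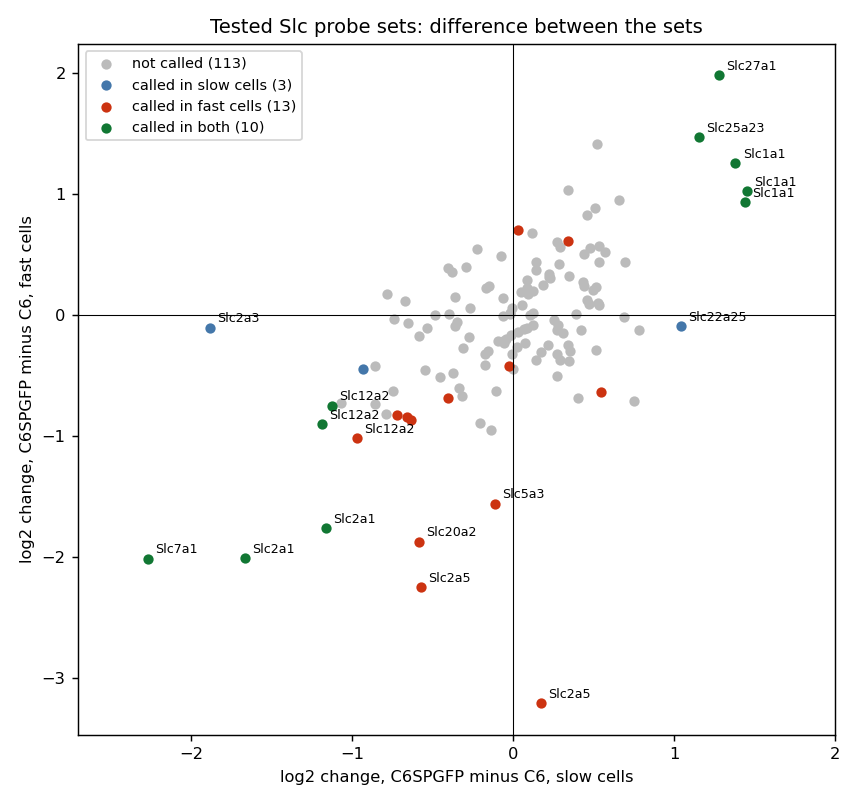
Log2 change from C6 to C6SPGFP in slow cells (x axis) and in fast cells (y axis) for the 139 tested Slc probe sets, coloured by whether the difference was called in neither (113), in slow cells (3), in fast cells (13) or in both (10). The probe sets called in both lie in the upper right (Slc1a1, Slc25a23, Slc27a1) and lower left (Slc2a1, Slc7a1, Slc12a2) corners; under the deposited scaling the fast-cell changes of Slc12a2 and of 5 genes called in fast cells (Slc3a2, Slc4a2, Slc5a6, Slc19a1, Slc25a17) turned positive.

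Of the 5 glutamate carriers, Slc1a1 was the one that differed: its signal was higher in C6SPGFP than in C6 cells, in slow and in fast cells, on all 3 of its probe sets. Slc1a1 encodes a glutamate and cysteine carrier of neurons and other cells. Its probe set AF038571_s_at had 67 and 57.8 in C6 slow, 72.4 and 57.3 in C6 fast, 172 and 197 in C6SPGFP slow and 122 and 159 in C6SPGFP fast cells. D63772_at had 107 and 112 in C6 slow, 118 and 69.7 in C6 fast, 305 and 317 in C6SPGFP slow and 186 and 177 in C6SPGFP fast cells. L35558_s_at had 58.9 and 45.3 in C6 slow, 56.6 and 46.4 in C6 fast, 142 and 153 in C6SPGFP slow and 127 and 141 in C6SPGFP fast cells. On each probe set all 4 C6SPGFP arrays were above all 4 C6 arrays. RNA was pooled over the cells of a sample, so more cells that carry a transcript and more transcript per cell cannot be told apart, here and below. In slow cells the changes were 1.45 (SE 0.21, adjusted p = 0.00641), 1.44 (SE 0.23, adjusted p = 0.00983) and 1.38 (SE 0.2, adjusted p = 0.00645), or 2.6 to 2.74 times on the scale of signal plus pseudocount. In fast cells they were 1.03 (SE 0.21, adjusted p = 0.0128), 0.94 (SE 0.23, adjusted p = 0.0282) and 1.26 (SE 0.2, adjusted p = 0.00379). For AF038571_s_at the slow-cell call was lost on leaving out C6SPGFP slow array 2 (1.36, adjusted p = 0.0677). Its fast-cell call was lost on leaving out C6 fast array 2 or C6SPGFP fast array 2 (from 0.85 to 0.88, adjusted p from 0.0679 to 0.104). For D63772_at the slow-cell call was lost on leaving out C6 slow array 1 or either C6SPGFP slow array (from 1.41 to 1.47, adjusted p from 0.0547 to 0.0831). Its fast-cell call was lost on leaving out C6 fast array 2, either C6SPGFP slow array or either C6SPGFP fast array (from 0.59 to 0.98, adjusted p from 0.0534 to 0.117). For L35558_s_at the slow-cell call was lost on leaving out C6SPGFP slow array 2 (1.33, adjusted p = 0.0662). The fast-cell call held in every run without an array (highest adjusted p = 0.0384).

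Between fast and slow cells no glutamate carrier was called in either set. Slc1a1 changed by -0.01 (L35558_s_at), 0.04 (AF038571_s_at) and -0.25 (D63772_at) in C6. In C6SPGFP the values in the same order were -0.13, -0.38 and -0.75, the last with an adjusted p of 0.265. On each of these 3 probe sets both C6SPGFP fast arrays lay below both C6SPGFP slow arrays. Slc1a2, the main glutamate carrier of mature astrocytes, had 1 probe set that was not low on all arrays, rc_AI638980_at, with 48.2 and 53.4 in C6 slow, 43.7 and 29.2 in C6 fast, 32.4 and 42.7 in C6SPGFP slow and 31.8 and 16.9 in C6SPGFP fast cells. Its changes, -0.42 in C6 and -0.52 in C6SPGFP for fast minus slow and -0.38 and -0.48 between the sets, missed the threshold (adjusted p from 0.332 to 0.617 over these 4). The other Slc1a2 probe sets ranged from 2.7 to 8.38, 3.51 to 7.4 and 4.33 to 15.1. Slc1a3, the glutamate carrier of radial glia and astrocytes, ranged from 3.2 to 22 (X63744_at), 2.91 to 19.3 (S59158_at), 3.54 to 20.9 (S75687_s_at) and 0.456 to 3.31 (X63744_g_at). The nearest to the threshold among its tests were X63744_at between the sets in fast cells, 0.89 (SE 0.29, adjusted p = 0.0781), and S75687_s_at for fast minus slow in C6, -0.91 (SE 0.29, adjusted p = 0.11). Slc1a6 lay between 1.19 to 3.06 and 1.56 to 2.91 on its probe sets, and Slc17a7 at 1.96 to 4.47. Over the 8 glutamate probe sets tested, 3 were called higher in slow (background 3.29%) and 3 in fast C6SPGFP cells (background 8.29%), all of Slc1a1, with a median of 0.52 against 0.01 for all probe sets in slow cells and 0.73 against -0.03 in fast cells.

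The glucose and fructose carriers held a called change between fast and slow C6 cells, that of Slc2a5, and a difference between the sets in Slc2a1. Slc2a5 encodes a facilitative fructose carrier, known in the brain from microglia. D28562_s_at had 6.25 and 5.92 in C6 slow, 150.3 and 104 in C6 fast, 7.86 and 7.9 in C6SPGFP slow and 7.12 and 5.74 in C6SPGFP fast cells. Both C6 fast arrays were far above the other 6, which all lay near the 25th percentile of all values. The change from slow to fast C6 cells was 3.24 (SE 0.25, adjusted p = 0.000129). The probe set reached the mean needed for testing through the C6 fast arrays, and the other 6 are not shown to be above background, so the size of each change here rests on the pseudocount. With a pseudocount of 4 the change in C6 was 3.68 and with 16 it was 2.68, called in both. The geometric mean of the C6 fast signals was 16.5 times the 25th percentile. In C6SPGFP the change was -0.14 (SE 0.25, adjusted p = 0.907), and the difference of these changes was -3.38 (SE 0.35, adjusted p = 0.000988). C6SPGFP fast cells were lower than C6 fast cells, at -3.21 (SE 0.25, adjusted p = 7.35e-05), and slow cells gave 0.17 (SE 0.25, adjusted p = 0.751). The calls held in every run without an array, with highest adjusted p values of 0.00163 in C6, 0.00871 for the difference and 0.00168 in fast cells.

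The second Slc2a5 probe set, D13871_s_at, had 29.3 and 37.8 in C6 slow, 148 and 122 in C6 fast, 11 and 32.7 in C6SPGFP slow and 10.7 and 40.4 in C6SPGFP fast cells. Its C6 fast signals were again above those of the other 6 arrays, but the C6SPGFP pairs were wide apart. The change in C6 was 1.79 (SE 0.48, adjusted p = 0.0649) and missed the threshold, as did the difference of changes, -1.68 (SE 0.67, adjusted p = 0.282). C6SPGFP fast cells were lower than C6 fast cells, at -2.25 (SE 0.48, adjusted p = 0.0146), a call that was lost on leaving out either C6 fast array or C6SPGFP fast array 1 (from -1.51 to -2.4, adjusted p from 0.0544 to 0.0885). The summed signal of 12 microglial and haematopoietic marker probe sets was 86.7 to 90.4 in C6 slow, 98.3 to 101.8 in C6 fast, 97.5 to 105 in C6SPGFP slow and 94.7 to 104 in C6SPGFP fast cells. Of the 12 probe sets 11 were low on all arrays, and the other, of Ptprc, ranged over 28.4 to 48.3. The part of such cells in the values of Slc2a5 was not tested.

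Slc2a1, the glucose carrier of most cells and of the blood-brain barrier, was lower in C6SPGFP than in C6 cells on both its probe sets. S68135_s_at had 151 and 137 in C6 slow, 154 and 159 in C6 fast, 34.9 and 45.5 in C6SPGFP slow and 38.6 and 28 in C6SPGFP fast cells. M13979_at had 63.7 and 60.5 in C6 slow, 93.9 and 70.1 in C6 fast, 16.9 and 31.2 in C6SPGFP slow and 15.7 and 21.4 in C6SPGFP fast cells. All C6SPGFP arrays were below all C6 arrays on both. For S68135_s_at the change was -1.66 (SE 0.21, adjusted p = 0.00376) in slow and -2.0 (SE 0.21, adjusted p = 0.000504) in fast cells, and for M13979_at -1.17 (SE 0.28, adjusted p = 0.0444) and -1.76 (SE 0.28, adjusted p = 0.00333). On the scale of signal plus pseudocount, S68135_s_at was 3.17 times lower in slow and 4.01 times lower in fast cells. Both calls of S68135_s_at and the fast-cell call of M13979_at held in every run without an array (highest adjusted p = 0.0351, 0.00719 and 0.0292). The slow-cell call of M13979_at was lost on leaving out either C6 slow array, either C6 fast array, either C6SPGFP slow array or either C6SPGFP fast array (from -0.84 to -1.51, adjusted p from 0.0541 to 0.222). Between fast and slow cells Slc2a1 gave 0.11 and 0.35 in C6 and -0.23 and -0.24 in C6SPGFP, none of them called.

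Slc2a3, the high-affinity glucose carrier of neurons, was called on 1 of its probe sets, D13962_at, with 59.9 and 54 in C6 slow, 9.8 and 32.5 in C6 fast, 8.66 and 10.5 in C6SPGFP slow and 11.2 and 24.7 in C6SPGFP fast cells. The C6 slow arrays were above the other 6, and slow C6SPGFP cells were lower than slow C6 cells, at -1.89 (SE 0.4, adjusted p = 0.0307). This call was lost on leaving out either C6 slow array or either C6SPGFP slow array (from -1.82 to -1.98, adjusted p from 0.0831 to 0.146). D13962_g_at, a probe set for the same transcript, had 219 and 372 in C6 slow, 137 and 278 in C6 fast, 176 and 150.3 in C6SPGFP slow and 223 and 221 in C6SPGFP fast cells. It gave -0.78 (SE 0.34, adjusted p = 0.232) between the sets in slow cells, so the probe sets disagreed on the call and not on the sign. For fast minus slow in C6 the values were -1.27 (SE 0.4, adjusted p = 0.113) and -0.53 (SE 0.34, adjusted p = 0.469).

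No other sugar carrier was called. Slc37a4, which carries glucose 6-phosphate into the endoplasmic reticulum, ranged over 141 to 202 and 208 to 345 on its probe sets, with its largest change between the sets in fast cells, 0.61 (SE 0.19, adjusted p = 0.0721). Slc5a1, a sodium-coupled glucose carrier of gut and kidney, ranged over 86.7 to 159 and 25.3 to 39.2, and Slc2a4, the insulin-regulated carrier of muscle and fat, over 6.92 to 40.3 and 4.83 to 14.9. Slc2a2, Slc37a1 and Slc5a2 were not tested, with signals of at most 1.91, 7.56 and 7.26. Of 12 sugar carrier probe sets tested, 1 was higher in fast C6 cells (background 2.69%), 3 were lower in slow (background 3.05%) and 4 lower in fast C6SPGFP cells (background 7.3%).

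**Figure D3:**
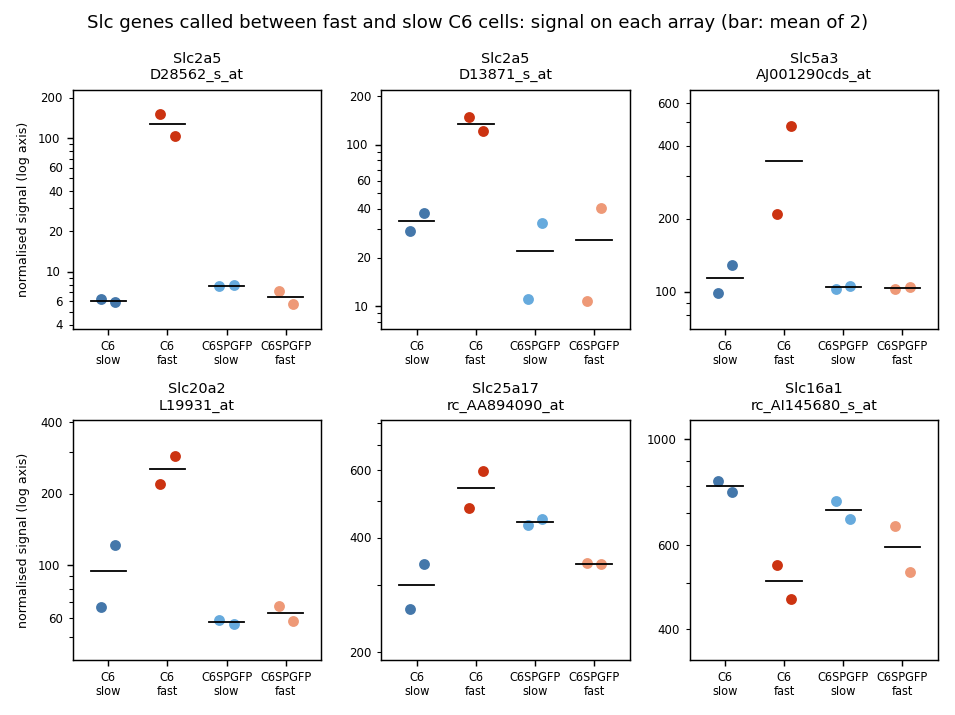
Normalised signal (y axis, log scale) on each array by group (x axis) for the Slc genes called between fast and slow C6 cells, with both probe sets of Slc2a5; points are arrays and bars the mean of 2. The C6 fast arrays lie apart from the other groups for Slc2a5, Slc5a3 and Slc20a2, while C6SPGFP fast and slow arrays lie close together for Slc5a3.

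Among amino acid carriers, 2 genes were called, both between the sets. Slc7a1, the plasma membrane carrier of arginine, lysine and ornithine, was lower in C6SPGFP cells on 1 of 3 probe sets. This one, rc_AA957917_s_at, had 131 and 78.2 in C6 slow, 149.6 and 146 in C6 fast, 15.5 and 14 in C6SPGFP slow and 26.7 and 35.3 in C6SPGFP fast cells. The 4 C6SPGFP arrays lay below every C6 array, and the changes were -2.27 (SE 0.26, adjusted p = 0.00249) in slow cells and -2.01 (SE 0.26, adjusted p = 0.00128) in fast cells, 4.82 and 4.02 times lower on the scale of signal plus pseudocount. Both calls held in every run without an array (highest adjusted p = 0.0268 and 0.0142). U70476_at had 136 and 78.2 in C6 slow, 171 and 103 in C6 fast, 65.8 and 43.2 in C6SPGFP slow and 66.3 and 88.6 in C6SPGFP fast cells. Its changes in slow and fast cells were -0.86 (SE 0.34, adjusted p = 0.192) and -0.74 (SE 0.34, adjusted p = 0.194). L10152_s_at had 33.8 and 43.6 in C6 slow, 49.1 and 89.9 in C6 fast, 26.7 and 38.6 in C6SPGFP slow and 37.1 and 28 in C6SPGFP fast cells. Its changes in slow and fast cells were -0.21 (SE 0.31, adjusted p = 0.759) and -0.89 (SE 0.31, adjusted p = 0.0893). All 3 had negative values in both comparisons, but the sizes differed widely, and the probe sets are not shown to measure the same transcript.

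Slc3a2 encodes the heavy chain that brings several amino acid carriers, such as Slc7a5, to the cell surface. Both probe sets were lower in C6SPGFP than in C6 fast cells. AB015433_s_at had 686 and 707 in C6 slow, 879.9 and 912 in C6 fast, 664 and 703 in C6SPGFP slow and 671 and 664 in C6SPGFP fast cells. X89225cds_s_at had 634 and 493 in C6 slow, 689.6 and 739 in C6 fast, 386 and 457 in C6SPGFP slow and 403 and 483 in C6SPGFP fast cells. The C6 fast arrays were the highest of all on both probe sets, and the changes were small, -0.42 (SE 0.12, adjusted p = 0.0443) and -0.68 (SE 0.18, adjusted p = 0.0321). Under the deposited scaling they turned to 0.66 and 0.46, where the median of all probe sets was 1.11. The call of AB015433_s_at was lost on leaving out either C6 fast array, either C6SPGFP slow array or either C6SPGFP fast array (from -0.39 to -0.45, adjusted p from 0.0798 to 0.173). That of X89225cds_s_at was lost on leaving out either C6 fast array or either C6SPGFP fast array (from -0.57 to -0.81, adjusted p from 0.0705 to 0.169). In C6, fast minus slow was 0.36 (SE 0.12, adjusted p = 0.122) and 0.35 (SE 0.18, adjusted p = 0.335).

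Slc7a5, the large neutral amino acid carrier that pairs with Slc3a2, had 471 and 278 in C6 slow, 195 and 764 in C6 fast, 526 and 531 in C6SPGFP slow and 606 and 466 in C6SPGFP fast cells. Its C6 fast pair spanned the whole range of the other arrays, and the changes carried wide errors, 0.1 (SE 0.52, adjusted p = 0.954) in C6 and 0.45 (SE 0.52, adjusted p = 0.646) between the sets in fast cells. Slc3a1, the heavy chain of the cystine carrier of kidney, ranged over 34.2 to 89, with -0.55 and -0.45 between the sets, and Slc6a20a, an imino acid carrier, over 38.3 to 55.4, with 0.22 in C6. The low members Slc6a15, Slc6a7, Slc7a2 and Slc7a3 were tested at signals of 3.88 to 16.1, 5.58 to 26.9, 5.24 to 20.2 and 6.92 to 27.8. None was called, and the largest of their changes was -0.74 (SE 0.34, adjusted p = 0.266) for the proline carrier Slc6a7 between the sets in slow cells. Slc6a17 and Slc6a18 were not tested, at 4.83 to 9.53 and 4 to 10.3. Of 12 probe sets tested, 1 was lower in slow (background 3.05%) and 3 in fast C6SPGFP cells (background 7.3%), and none was called between fast and slow cells of either set.

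The cation-chloride carriers use the sodium or potassium gradient to bring chloride into or out of the cell. Slc12a2, which imports sodium, potassium and chloride, was lower in C6SPGFP than in C6 cells. AF051561_s_at had 551 and 690.4 in C6 slow, 544 and 369 in C6 fast, 283 and 274 in C6SPGFP slow and 263 and 266 in C6SPGFP fast cells. AF086758_g_at had 150.4 and 189.8 in C6 slow, 125 and 177 in C6 fast, 85.1 and 57 in C6SPGFP slow and 73.3 and 78.8 in C6SPGFP fast cells. S82233_s_at had 145 and 205 in C6 slow, 138 and 216 in C6 fast, 95.4 and 74.5 in C6SPGFP slow and 80.8 and 82.9 in C6SPGFP fast cells. On these 3 probe sets every C6SPGFP array was below every C6 array. In slow cells the changes were -1.13 (SE 0.2, adjusted p = 0.0157), -1.19 (SE 0.25, adjusted p = 0.0299) and -0.97 (SE 0.26, adjusted p = 0.0691), the last of them not called. In fast cells they were -0.75 (SE 0.2, adjusted p = 0.0416), -0.9 (SE 0.25, adjusted p = 0.0452) and -1.01 (SE 0.26, adjusted p = 0.0331). Under the deposited scaling the fast-cell values turned to 0.44, 0.35 and 0.24. With arrays scaled to the same trimmed mean all 3 fast-cell calls ended (-0.69, -0.73 and -0.85, adjusted p from 0.0579 to 0.0858), as they did with no filter on low values (-0.75, -0.9 and -1.01, adjusted p from 0.0502 to 0.0667). The slow-cell call of AF051561_s_at was lost on leaving out C6 slow array 2 or either C6SPGFP slow array (from -0.96 to -1.15, adjusted p from 0.0658 to 0.114). That of AF086758_g_at was lost on leaving out either C6 slow array, either C6SPGFP slow array or C6SPGFP fast array 2 (from -0.93 to -1.45, adjusted p from 0.0543 to 0.204). The fast-cell call of AF051561_s_at was lost on leaving out C6 fast array 1, either C6SPGFP slow array or either C6SPGFP fast array (from -0.47 to -0.76, adjusted p from 0.0726 to 0.189). That of AF086758_g_at was lost on leaving out either C6 fast array or either C6SPGFP fast array (from -0.66 to -1.13, adjusted p from 0.0501 to 0.198). That of S82233_s_at was lost on leaving out C6 fast array 2, either C6SPGFP slow array or either C6SPGFP fast array (from -0.71 to -1.04, adjusted p from 0.0503 to 0.158). The remaining probe set, AF086758_at, was low, at 1.9 to 10.3.

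Between fast and slow cells Slc12a2 gave -0.45, -0.18 and 0.0 in C6 and -0.07, 0.11 and -0.04 in C6SPGFP, none called. Slc12a4, a potassium-chloride exporter found in most cells, was measured by U55815_at and rc_AI639049_s_at. The former had 334 and 453 in C6 slow, 255 and 195 in C6 fast, 479.9 and 176 in C6SPGFP slow and 379 and 231 in C6SPGFP fast cells. The latter had 337 and 287 in C6 slow, 234 and 157 in C6 fast, 388 and 224 in C6SPGFP slow and 325 and 229.7 in C6SPGFP fast cells. Its C6 fast signals were the lowest or among the lowest, with -0.78 (SE 0.43, adjusted p = 0.387) and -0.68 (SE 0.3, adjusted p = 0.27) against C6 slow cells. In both C6SPGFP groups replicate 1 was brighter than replicate 2 on both probe sets. Slc12a7, a related exporter, had 53.8 and 34.3 in C6 slow, 25.1 and 47.1 in C6 fast, 76.5 and 73.4 in C6SPGFP slow and 48.2 and 51.9 in C6SPGFP fast cells, with 0.7 (SE 0.29, adjusted p = 0.215) between the sets in slow cells. Of the kidney carrier Slc12a3, 1 probe set was tested, at 4.04 to 15.6, and not called, and the other ranged over 4.04 to 8.26. Slc12a1 and Slc12a5, at 0.537 to 7.91 and 0.912 to 2.79, were not tested. Of 7 probe sets tested, 2 were lower in slow (background 3.05%) and 3 in fast C6SPGFP cells (background 7.3%), all of Slc12a2, and none was called higher.

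**Figure D4:**
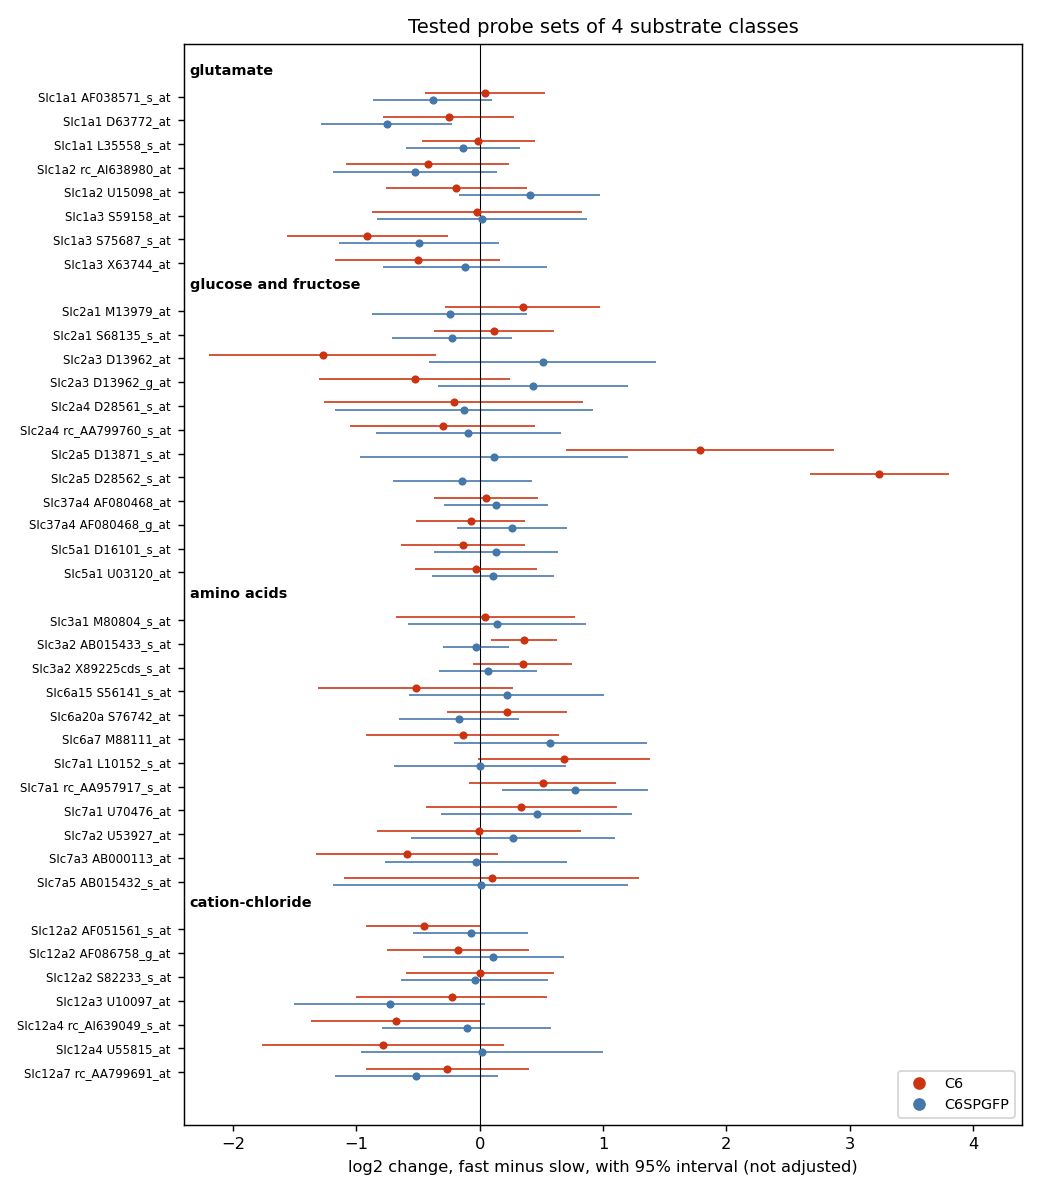
Log2 change from slow to fast cells (x axis) in C6 (red) and C6SPGFP (blue) for the tested probe sets of the 4 substrate classes (y axis), with 95% intervals not adjusted for the number of tests. D28562_s_at of Slc2a5, at 3.24 in C6 and -0.14 in C6SPGFP, is the only probe set called among these in either set.

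**Figure D5:**
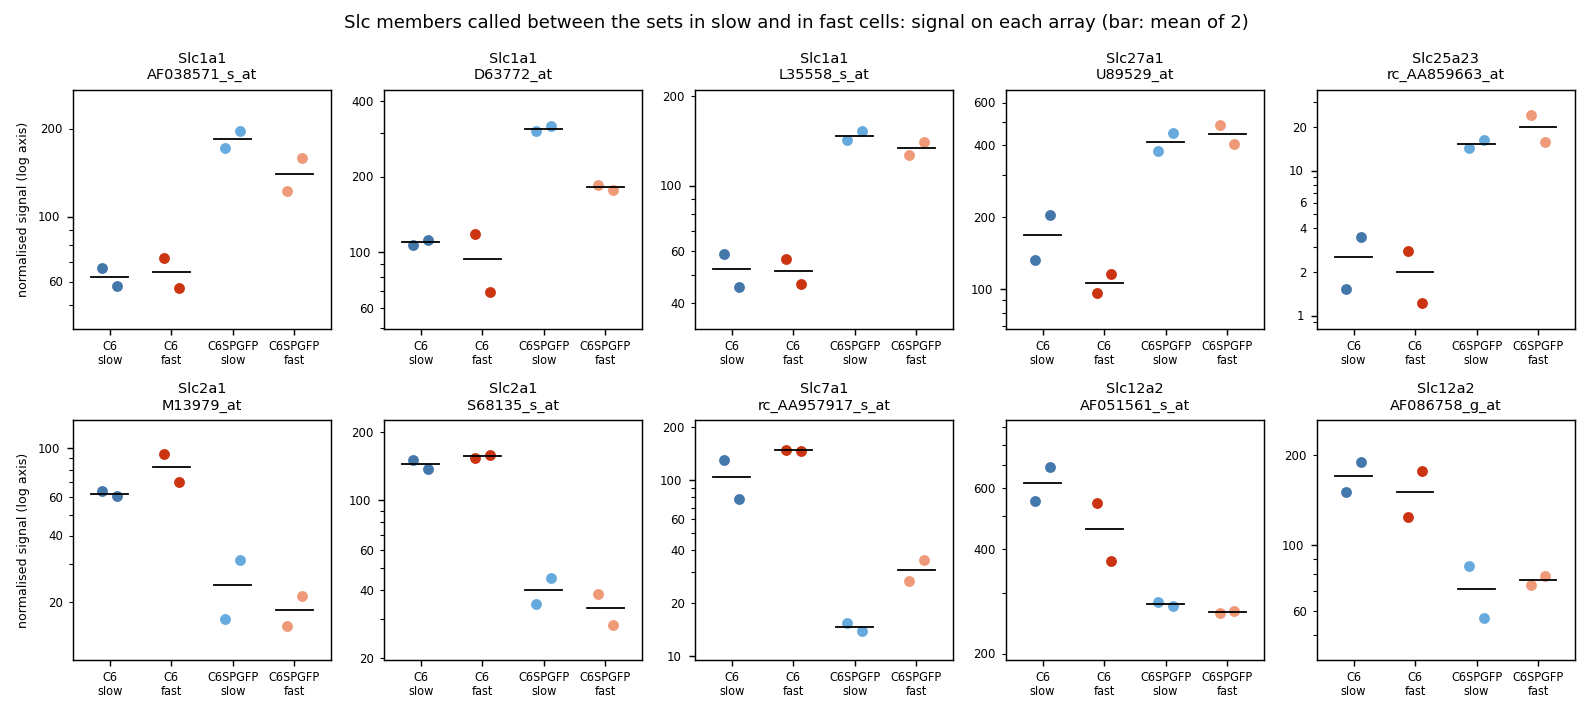
Normalised signal (y axis, log scale) on each array by group (x axis) for the 10 Slc probe sets called between the sets in both slow and fast cells; points are arrays and bars the mean of 2. The C6SPGFP arrays lie above all C6 arrays for Slc1a1, Slc27a1 and Slc25a23 and, after quantile normalisation, below them for Slc2a1, Slc7a1 and Slc12a2 (for Slc12a2 the fast-cell sign turned under the deposited scaling).

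Outside these 4 classes, Slc27a1, a protein of long-chain fatty acid uptake, was higher in C6SPGFP cells. Its probe set had 132 and 204 in C6 slow, 96.5 and 116 in C6 fast, 376 and 448 in C6SPGFP slow and 484 and 404 in C6SPGFP fast cells. All C6SPGFP arrays were above all C6 arrays, and the changes were 1.28 (SE 0.23, adjusted p = 0.0155) in slow and 1.98 (SE 0.23, adjusted p = 0.000799) in fast cells, 2.43 and 3.96 times on the scale of signal plus pseudocount. The fast-cell call was the only one of the 43 that none of the alternatives ended, with changes from 1.84 to 3.24. The largest came from the deposited scaling, which shifted the median fast-cell change of all probe sets upward and so favours calls of higher signal. Holding there does not make this call firmer than those that ended only there, such as both of S68135_s_at of Slc2a1. The slow-cell call was lost on leaving out C6 slow array 1 or either C6SPGFP slow array (from 0.98 to 1.41, adjusted p from 0.0645 to 0.13). Slc27a2, which activates very long fatty acids, had 8.54 and 12.6 in C6 slow, 10.3 and 9.78 in C6 fast, 19.7 and 11.7 in C6SPGFP slow and 64.6 and 10.9 in C6SPGFP fast cells. A single array, C6SPGFP fast replicate 1, stood out, and the change between the sets in fast cells was 1.04 (SE 0.54, adjusted p = 0.249).

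The Slc25 family holds the carriers of the inner mitochondrial membrane and a few of other organelles, and 3 of its 12 genes tested were called. Of 16 probe sets, 1 was higher in fast C6 cells (background 2.69%) and 1 was called for the difference, negative (background 1.11%). Between the sets 1 was higher in slow cells (background 3.29%). In fast cells 2 were higher (background 8.29%) and 1 lower (background 7.3%). Slc25a23, which exchanges ATP-magnesium for phosphate and is calcium-regulated, was low on all arrays with 1.54 and 3.51 in C6 slow, 2.79 and 1.23 in C6 fast, 14.4 and 16.3 in C6SPGFP slow and 24.1 and 15.8 in C6SPGFP fast cells. The C6SPGFP arrays were all above the C6 arrays, which lay below the 25th percentile, where signal cannot be told from background. The changes, 1.16 (SE 0.27, adjusted p = 0.0434) in slow and 1.47 (SE 0.27, adjusted p = 0.00752) in fast cells, thus rest on the pseudocount, at 1.58 and 1.99 with 4 and 0.76 and 0.99 with 16. The probe set reached the mean needed for testing through the C6SPGFP arrays, whose geometric mean was 2.03 times the 25th percentile in slow and 2.58 times in fast cells. The slow-cell call was lost on leaving out either C6 slow array, C6 fast array 1, either C6SPGFP slow array or C6SPGFP fast array 2 (from 1.05 to 1.32, adjusted p from 0.0503 to 0.215). The fast-cell call held in every run without an array that tested it. Without C6SPGFP fast array 1 the probe set fell under the mean needed and was tested in neither comparison. Slc25a10, the dicarboxylate carrier, was called on 1 of 3 probe sets, AJ223355_g_at, with 430.3 and 520.5 in C6 slow, 438 and 474 in C6 fast, 539.6 and 671 in C6SPGFP slow and 709 and 697 in C6SPGFP fast cells. Its change between the sets in fast cells was 0.62 (SE 0.16, adjusted p = 0.0334), and the call was lost on leaving out either C6 fast array or either C6SPGFP fast array (from 0.56 to 0.67, adjusted p from 0.0797 to 0.137). The other 2 gave 0.96 (SE 0.29, adjusted p = 0.058) and 0.51 (SE 0.21, adjusted p = 0.158), with signals over 141 to 419 and 104 to 188.

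Slc25a17, the peroxisomal carrier of nucleotide cofactors, had 259 and 341 in C6 slow, 478 and 599 in C6 fast, 430.3 and 446 in C6SPGFP slow and 343 and 340.1 in C6SPGFP fast cells. It was higher in fast than in slow C6 cells, by 0.83 (SE 0.18, adjusted p = 0.0287), and gave -0.35 (SE 0.18, adjusted p = 0.575) in C6SPGFP. The difference of these changes was -1.18 (SE 0.25, adjusted p = 0.0403), and the fast arrays lay above the slow ones in C6 and below them in C6SPGFP. Between the sets in fast cells it was -0.64 (SE 0.18, adjusted p = 0.0463), which turned to 0.55 under the deposited scaling. The call in C6 was lost on leaving out C6 slow array 1, C6 fast array 2, either C6SPGFP slow array or either C6SPGFP fast array (from 0.63 to 0.85, adjusted p from 0.0511 to 0.157). The call of the difference was lost on leaving out C6 slow array 1, C6 fast array 2, either C6SPGFP slow array or either C6SPGFP fast array (from -0.98 to -1.23, adjusted p from 0.1 to 0.17). That in fast cells was lost on leaving out either C6 fast array, either C6SPGFP slow array or either C6SPGFP fast array (from -0.47 to -0.79, adjusted p from 0.0541 to 0.196).

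Slc5a3 and Slc20a2, sodium-coupled carriers of small solutes, were higher in fast than in slow C6 cells. Slc5a3, which takes up the osmolyte myo-inositol, had 98.9 and 129 in C6 slow, 210.0 and 485 in C6 fast, 103 and 105 in C6SPGFP slow and 102 and 105 in C6SPGFP fast cells. The C6 fast arrays were above the rest but far from each other, while the 4 C6SPGFP arrays lay between 102 and 105. The change was 1.44 (SE 0.34, adjusted p = 0.0411) in C6, -0.01 (SE 0.34, adjusted p = 0.999) in C6SPGFP and -1.56 (SE 0.34, adjusted p = 0.0166) between the sets in fast cells. The call in C6 was lost on leaving out either C6 slow array, C6 fast array 2, either C6SPGFP slow array or either C6SPGFP fast array (from 0.85 to 1.62, adjusted p from 0.0671 to 0.18). That in fast cells was lost on leaving out either C6SPGFP fast array (from -1.54 to -1.57, adjusted p from 0.0733 to 0.0848). Slc20a2, a phosphate carrier, had 67 and 122 in C6 slow, 219 and 288 in C6 fast, 59 and 56.8 in C6SPGFP slow and 67.7 and 58.7 in C6SPGFP fast cells. Its changes were 1.39 (SE 0.28, adjusted p = 0.0184) in C6, 0.11 (SE 0.28, adjusted p = 0.945) in C6SPGFP and -1.87 (SE 0.28, adjusted p = 0.00242) between the sets in fast cells, 3.65 times lower on the scale of signal plus pseudocount. The call in C6 was lost on leaving out C6 slow array 1 or C6 fast array 2 (from 1.0 to 1.21, adjusted p from 0.0746 to 0.124). That in fast cells held in every run without an array (highest adjusted p = 0.0272). The difference of the fast minus slow changes missed the threshold for both, at -1.44 (SE 0.48, adjusted p = 0.182) and -1.29 (SE 0.39, adjusted p = 0.145), so a change in C6 alone is not shown.

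Slc16a1, the proton-coupled lactate carrier of most cells, was the single Slc gene called lower in fast C6 cells. Its probe set rc_AI145680_s_at had 819 and 777 in C6 slow, 546 and 462 in C6 fast, 742 and 680.3 in C6SPGFP slow and 659 and 528 in C6SPGFP fast cells. D63834_at had 347 and 254 in C6 slow, 185 and 159.9 in C6 fast, 181 and 185 in C6SPGFP slow and 166 and 213 in C6SPGFP fast cells. On both, the C6 fast arrays were below the C6 slow arrays, at -0.66 (SE 0.16, adjusted p = 0.0415) and -0.76 (SE 0.21, adjusted p = 0.0706), the second not called. The call was lost on leaving out either C6 slow array, either C6 fast array or either C6SPGFP slow array (from -0.53 to -0.77, adjusted p from 0.061 to 0.198). In C6SPGFP the values were -0.26 and 0.03. Slc16a3, the lactate exporter of glycolytic cells, had 37.4 and 33 in C6 slow, 29.9 and 36.9 in C6 fast, 55.6 and 48.4 in C6SPGFP slow and 40.3 and 32.4 in C6SPGFP fast cells, with -0.06 in C6 and -0.44 in C6SPGFP, not called.

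Of the bicarbonate carriers, which set cell pH, Slc4a2 and Slc4a7 were called between the sets, in opposite directions. Over the 7 probe sets of 4 such genes tested, 1 was called lower in slow cells (background 3.05%). In fast cells 1 was called higher (background 8.29%) and 1 lower (background 7.3%), and none was of Slc4a1 or Slc4a3. Slc4a2, the chloride-bicarbonate exchanger of most cells, was measured by J05166_g_at and J05166_at. J05166_g_at had 275 and 301 in C6 slow, 266 and 206 in C6 fast, 162 and 134 in C6SPGFP slow and 174 and 167 in C6SPGFP fast cells. J05166_at had 270.1 and 349.8 in C6 slow, 309 and 284 in C6 fast, 161 and 208 in C6SPGFP slow and 183 and 147 in C6SPGFP fast cells. The C6SPGFP arrays were below the C6 arrays on both. J05166_g_at was called in slow cells, -0.93 (SE 0.19, adjusted p = 0.0241), and gave -0.44 (SE 0.19, adjusted p = 0.162) in fast cells. J05166_at gave -0.72 (SE 0.21, adjusted p = 0.0825) and was called in fast cells, -0.82 (SE 0.21, adjusted p = 0.0298), turning to 0.38 under the deposited scaling. The slow-cell call was lost on leaving out either C6 slow array or either C6SPGFP slow array (from -0.8 to -1.06, adjusted p from 0.0718 to 0.181). The fast-cell call was lost on leaving out either C6 fast array or either C6SPGFP fast array (from -0.67 to -0.96, adjusted p from 0.0623 to 0.183). Slc4a7, a sodium-bicarbonate carrier, had 552 and 675 in C6 slow, 399 and 487 in C6 fast, 689.6 and 562 in C6SPGFP slow and 772 and 679.7 in C6SPGFP fast cells. It was higher in C6SPGFP than in C6 fast cells, by 0.71 (SE 0.18, adjusted p = 0.0281). This call was lost on leaving out C6 fast array 1 or either C6SPGFP fast array (from 0.56 to 0.8, adjusted p from 0.0837 to 0.145).

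Of 7 probe sets tested in the class of anion, iodide and vitamin carriers, 2 were lower in C6SPGFP than in C6 fast cells (background 7.3%). Both were of vitamin carriers, and the class had no other call. Slc19a1, the reduced folate carrier, had 174 and 161 in C6 slow, 220.1 and 196 in C6 fast, 98.4 and 108 in C6SPGFP slow and 109 and 116 in C6SPGFP fast cells on U38180_at. The changes were -0.66 (SE 0.17, adjusted p = 0.0587) in slow and -0.84 (SE 0.17, adjusted p = 0.0117) in fast cells. The fast-cell call was lost on leaving out C6 fast array 1 or either C6SPGFP fast array (from -0.75 to -0.88, adjusted p from 0.0599 to 0.0669) and turned to 0.39 under the deposited scaling. U38180_g_at gave -0.79 (SE 0.27, adjusted p = 0.126) and -0.82 (SE 0.27, adjusted p = 0.0748) at signals over 98.9 to 283. Slc5a6, the carrier of biotin and pantothenate, had 123 and 167 in C6 slow, 142 and 143 in C6 fast, 90.1 and 89.1 in C6SPGFP slow and 85.8 and 65.4 in C6SPGFP fast cells on AF081204_s_at. The change in fast cells was -0.86 (SE 0.21, adjusted p = 0.0271). This call was lost on leaving out either C6 fast array, either C6SPGFP slow array or C6SPGFP fast array 2 (from -0.69 to -0.87, adjusted p from 0.0514 to 0.173) and turned to 0.41 under the deposited scaling. AF026554_at, the other probe set of Slc5a6, gave -0.11 (SE 0.25, adjusted p = 0.838) over signals of 259 to 409, so the probe sets disagreed. Slc22a25, a low member of the organic anion carriers, had 6.71 and 3.74 in C6 slow, 8.51 and 12 in C6 fast, 18.3 and 19.8 in C6SPGFP slow and 8.07 and 10.1 in C6SPGFP fast cells. It was higher in C6SPGFP than in C6 slow cells by 1.04 (SE 0.25, adjusted p = 0.0479), a size that rests on the pseudocount, as both C6 slow arrays lay below the 25th percentile. The call was lost on leaving out either C6 slow array, either C6 fast array, either C6SPGFP slow array or C6SPGFP fast array 2 (from 0.9 to 1.24, adjusted p from 0.0548 to 0.234).

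Settings other than the deposited scaling and left-out arrays also ended some of the 43 calls, without turning a sign. Scaling the arrays to the same trimmed mean ended 5: Slc16a1 in fast against slow C6 cells and Slc12a2 (3 probe sets) and Slc5a6 between the sets in fast cells (adjusted p from 0.0512 to 0.0858). Testing with no filter on low values ended 8: Slc5a3 and Slc16a1 in fast against slow C6 cells, Slc2a3 and Slc2a1 between the sets in slow cells and Slc12a2 (3 probe sets) and Slc25a17 between the sets in fast cells (adjusted p from 0.0502 to 0.0838). A fit without a trend in the moderation ended 11: Slc5a3, Slc25a17 and Slc16a1 in fast against slow C6 cells, Slc25a17 for the difference and Slc3a2 (2 probe sets), Slc12a2 (2 probe sets), Slc25a10, Slc4a7 and Slc25a17 between the sets in fast cells (adjusted p from 0.0557 to 0.121). A fit on only the groups compared ended 16: Slc5a3, Slc20a2, Slc25a17 and Slc16a1 in fast against slow C6 cells, Slc12a2, Slc4a2, Slc2a1, Slc25a23 and Slc22a25 between the sets in slow cells and Slc3a2, Slc12a2 (3 probe sets), Slc5a6, Slc1a1 and Slc25a17 between the sets in fast cells (adjusted p from 0.0504 to 0.144). A pseudocount of 4 ended 1: Slc22a25 between the sets in slow cells (adjusted p = 0.0509).

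In the remaining classes, and for mitochondrial and organic ion carriers, the member with the highest mean signal is given, a choice that compares no amounts. Slc25a3, the mitochondrial phosphate carrier, had 2133 and 1991 in C6 slow, 2346 and 2292 in C6 fast, 2402 and 2383 in C6SPGFP slow and 2007 and 1914 in C6SPGFP fast cells, with a change of 0.17 in C6 and -0.29 in C6SPGFP. Slc6a9, a glycine carrier of glia, had 163 and 215 in C6 slow, 242 and 388 in C6 fast, 53.6 and 133 in C6SPGFP slow and 209 and 159 in C6SPGFP fast cells, with wide pairs and 1.03 (SE 0.39, adjusted p = 0.398) in C6SPGFP. The metal carrier Slc41a3, a magnesium carrier, ranged over 133 to 245, and the sodium-calcium exchanger Slc8a1 over 161 to 285 on X68812_s_at, with its other 4 probe sets between 0.512 and 35.6. Slc35b1, a nucleotide carrier of the endoplasmic reticulum, ranged over 776 to 1098 and 358 to 550.4, and its change between the sets in slow cells, 0.43 (SE 0.11, adjusted p = 0.06), missed the threshold. The urea carrier Slc14a2 ranged over 208 to 278 and 1.23 to 7.55. The serotonin carrier Slc6a4 ranged over 62.9 to 103 and 6.62 to 21.1, and the equilibrative nucleoside carrier Slc29a2 over 123 to 155. The peptide and histidine carrier Slc15a4 ranged over 63.3 to 103 and the organic anion carrier Slc22a7 over 93 to 164 and 9.07 to 38.7. Slc13a2, a citrate and succinate carrier, ranged over 18.8 to 54.6, Slc10a2, the ileal bile acid carrier, over 11.1 to 39 and 0.35 to 6.26, and Slc44a4, a choline carrier family member, over 14.6 to 34.9. None of these was called in any comparison.

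Genes that work beside the carriers were read from 9 lists of 50 genes, of which 30 were on the arrays with 56 probe sets, 51 of them tested. In C6, 5 of the 51 were higher (background 2.69%) and 3 lower (background 3.96%) in fast cells, and in C6SPGFP none was called (background 1.06% and 0.329%). The difference was called in the positive direction for 1 (background 2.71%) and in the negative for 5 (background 1.11%). Between the sets, 1 was higher (background 3.29%) and 4 were lower (background 3.05%) in slow cells, and 4 were higher (background 8.29%) and 12 lower (background 7.3%) in fast cells. The lists were chosen with earlier results of these data known, so these counts are no result about the lists. The 5 called higher in C6 were probe sets of Atp1b1 (3) and Car2 (2). Atp1b1, a beta subunit of the sodium-potassium pump that maintains the gradients used by sodium-coupled carriers, was higher in fast C6 cells on 3 probe sets. On rc_AI112173_at, at 50.2 to 59.5 in C6 slow and 1112 to 1466 in C6 fast cells, the change was 4.36 (SE 0.22, adjusted p = 1.58e-05). The other 2, rc_AI230614_s_at and X63375exon_at, lay below the 25th percentile on every array but the C6 fast ones and reached the mean needed for testing through these. Their changes, 5.18 (SE 0.23, adjusted p = 5.86e-06) and 2.28 (SE 0.28, adjusted p = 0.00168), rest on the pseudocount, and their C6 fast signals were 52.9 and 5.64 times the 25th percentile. In C6SPGFP rc_AI112173_at gave 0.22, with a difference of -4.13, and the difference was called for all 3. Car2, a carbonic anhydrase that supplies bicarbonate and protons to acid-base carriers, was higher in fast C6 cells on both probe sets, by 2.22 (SE 0.25, adjusted p = 0.000931) and 2.36 (SE 0.28, adjusted p = 0.00133), with differences of -2.25 and -2.23. The former probe set, U60578cds_s_at, was at 0.975 to 2.17 outside C6 fast cells, below the 25th percentile. It too reached the mean needed for testing through the C6 fast arrays, so the size of its changes rests on the pseudocount. Its C6 fast signals were 5.01 times that percentile.

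Of the glutamate and glutamine enzymes, Glul, which makes glutamine from glutamate in astroglia, was lower in fast C6 cells on 2 of 4 probe sets, at -1.39 (SE 0.22, adjusted p = 0.00632) and -0.85 (SE 0.19, adjusted p = 0.0297). It was also lower in C6SPGFP than in C6 slow cells, at -1.01 and -1.38. Gad1, which makes GABA from glutamate, was lower in fast C6 cells, at -1.62 (SE 0.22, adjusted p = 0.00241), and higher in C6SPGFP cells, by 1.88 in slow and 3.58 (SE 0.22, adjusted p = 1.97e-05) in fast cells. Its C6 fast signals were 2.98 and 2.12, below the 25th percentile, so the changes against them rest on the pseudocount, and C6SPGFP fast cells were at 15.6 times that percentile. Got2, the mitochondrial aspartate aminotransferase, was lower in C6SPGFP cells on 2 of 3 probe sets, at -0.59 and -0.74 in slow and -0.49 and -0.6 in fast cells. In fast cells the comparison of the sets also called 1 probe set each of several genes. The pump subunit Atp1b3 was higher (0.5), as was 1 of 2 for the glycolytic aldolase Aldoc (1.59, the other 1.71). Of 3 for Glud1, glutamate dehydrogenase, the dimmest was called higher (1.03), while the brighter ones gave -0.24 and -0.04. Lower was 1 of 2 for the hexokinase Hk1 (-1.07, the other -0.77), for the monocarboxylate carrier partner Emb (-1.81 and -0.58) and for the stress gene Trib3 (-2.37 and -1.23). Of 3 for the kinase Stk39, which acts on Slc12a2, AF068261_s_at was called lower (-1.23), while the brightest, D88190_s_at, gave 0.55 and rc_AI043684_at gave -0.2.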

How the data were processed

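RNA of 8 C6 glioma samples was measured on oligonucleotide arrays. The authors deposited linear probe set signals (intensity, never negative), by a program that no header or label names. Groups came from the sample titles. Signals were quantile normalised between arrays and taken as log2 of signal plus 8, which understates the changes of dim probe sets. The 59 controls were left out, as were 2056 probe sets with a mean under 8, and 6684 were tested with limma 3.58.1 in R 4.3.3 (4 group means, eBayes with a trend, two-sided, Benjamini-Hochberg at 5% over all probe sets tested), with 4 residual and 4.49 prior degrees of freedom and a median SE of 0.241 for a single comparison and 0.341 for the difference. The fit was first tested on simulated data. The number of arrays limits the precision.

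Symbols came from the platform's probe table, brought through Entrez identifiers to RefSeq GRCr8 names, and 2 probe sets with an Slc symbol among several were left out. The rule for naming was every called Slc probe set, every tested member of the 4 classes asked about, the member with the highest mean signal in each other class, every low member, and called partner genes. Members and lists were chosen with earlier results of these data known. In the class table, patterns for Slc6a20a, Slc35b1 and Slc35f6 were widened once the names on the arrays were seen, with no values in use. Alternatives changed the scaling, pseudocount, filter, moderation, arrays in the fit and replicate block, and left out each array in turn. The deviations of same-numbered replicates correlated weakly at most (r from -0.127 to 0.266 over the 6 pairs of groups). The highest values were 0.266 for C6 slow with C6 fast and 0.104 for C6SPGFP slow with C6SPGFP fast arrays. The labels give no pairing, and none was assumed in the main fit.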

Additional observations from a re-analysis of the deposited data

Results flagged for a closer look

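For 2 probe sets the change from slow to fast cells differed between C6SPGFP and C6, by the test of the difference itself in the limma fit. For Slc2a5 (D28562_s_at), the fructose carrier, the change was 3.24 in C6 and -0.14 in C6SPGFP, a difference of -3.38 (adjusted p = 0.000988), with both C6 fast arrays above the other 6, whose dim signals make the size rest on the pseudocount. The other Slc2a5 probe set, D13871_s_at, gave a difference of -1.68 and was not called. For Slc25a17, the peroxisomal carrier, the change was 0.83 in C6 and -0.35 in C6SPGFP, a difference of -1.18 (adjusted p = 0.0403), and the fast arrays lay above the slow ones in C6 and below them in C6SPGFP. This call was lost on leaving out C6 slow array 1, C6 fast array 2, either C6SPGFP slow array or either C6SPGFP fast array. It was also lost without a trend in the moderation. The groups of 2 arrays are too small for a test of outlying arrays.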

How the results depend on the processing

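The deposited scaling left 0 of 5 calls in C6, 0 of 2 for the difference, 0 of 13 in slow and 1 of 23 in fast cells between the sets. It moved the median of all tested probe sets to 1.11 in fast cells and reversed 9 calls there: Slc3a2 (0.66 and 0.46), Slc12a2 (0.44, 0.35 and 0.24), Slc5a6 (0.41), Slc4a2 (0.38), Slc25a17 (0.55) and Slc19a1 (0.39). Scaling the arrays to the same trimmed mean, the other scaling tried, gave counts of 5, 0, 2, 12 and 22 in the order C6, C6SPGFP, difference, slow and fast. It kept 35 of the 40 calls it could test and ended 5 (Slc16a1, Slc5a6 and 3 of Slc12a2). The count in C6 stayed at 5 though the call of Slc16a1 ended, so these counts include probe sets not called in the main fit. In C6 the count was 3 with no filter, 2 without a trend in the moderation and 2 with only the groups compared, and from 2 to 5 without 1 array. For the difference it was 1 with a filter at the 50th percentile, 1 without a trend, and 1 to 4 without 1 array. Between the sets it was 8 with only the slow groups in the fit, 2 to 11 without 1 array in slow cells and 9 to 26 in fast cells. The filter at the 50th percentile kept all 36 calls it could test, and D28562_s_at of Slc2a5 lay under this filter and was not tested there. In C6SPGFP every setting gave 0, so that count says nothing about stability. With 77 probe sets low at the 50th percentile, 24 were low at the 25th. With the replicate number as a replicate block the counts were 6, 0, 2, 10 and 20 in the order C6, C6SPGFP, difference, slow and fast. This block ended 6 calls, those of Slc2a1, Slc25a23 and Slc22a25 in slow and of Slc3a2 and 2 probe sets of Slc12a2 in fast cells (adjusted p from 0.0556 to 0.0682). By their labels, same-numbered arrays share only a number. Signals near the 25th percentile, 7.56, are not shown to be above background, which limits every low member.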
